A study of Mus musculus with 6 samples.

Results

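The Bcl2 family decides whether a cell's mitochondria release the proteins that start apoptosis. Of its genes, 10 were followed in macrophages of injured muscle, taken by gene name (Bcl2, Bcl2l1, Mcl1, Bcl2a1b, Bcl2a1d, Bcl2l11, Bax, Bak1, Bid and Bad) from a table of 53774 named lines. All 10 were present. The cells had been sorted for CD45 and F4/80, surface markers of leukocytes and of macrophages, from skeletal muscle of mice 3 days after it was injured with BaCl2. All mice carried Cx3cr1-CreER, a tamoxifen-activated recombinase made where the Cx3cr1 promoter is active, and Manf fl/fl, both copies of Manf flanked by recombination sites. There were 3 libraries labelled tamoxifen, from mice treated to delete Manf, and 3 oil libraries, from mice of the same genotype given the carrier. Cells in which the promoter was silent while tamoxifen acted, as in their precursors, keep Manf in this model. Tamoxifen itself and the deletion it induces cannot be told apart here. The sources used here give neither ages nor whether each library is a separate mouse, so the spread between libraries may be technical.

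Members act at the outer mitochondrial membrane. Bax and Bak1 are the effectors, which form pores that let cytochrome c out. Bcl2, Bcl-xL (from Bcl2l1), Mcl1 and the A1 proteins (from the Bcl2a1 genes) hold them in check. The BH3-only proteins Bim (from Bcl2l11), Bid and Bad oppose these guards, and Bim and Bid can also activate the effectors directly. Mcl1 and A1 proteins turn over fast. Whether the macrophages studied here depend on them was not tested. A1 is induced by NF-kB signalling, and mice carry several nearly identical Bcl2a1 genes on chromosome 9.

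Because the results below separate Bcl2a1b from Bcl2a1d, the sequences by which these copies can be told apart are shown first. The first 60 coding bases of each copy detected here, from GENCODE M21 transcripts (GRCm38), are given with the bases at which the copies differ in capitals.
Bcl2a1a: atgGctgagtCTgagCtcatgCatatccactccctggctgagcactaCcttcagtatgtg
Bcl2a1b: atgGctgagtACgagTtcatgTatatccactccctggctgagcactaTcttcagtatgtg
Bcl2a1d: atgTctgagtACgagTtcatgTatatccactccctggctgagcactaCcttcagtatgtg
Over the whole coding sequence of 519 bases, Bcl2a1b differed from Bcl2a1d at 6 bases (98.8% identity) and from Bcl2a1a at 11. Of all 50-base windows of the Bcl2a1b transcript, 57.6% occurred unchanged in another Bcl2a1 transcript, and 31.1% of its 100-base windows did. For Bcl2a1d these shares were 79.5% and 54.7%. The sources used here give neither the read length nor how reads that match several genes were handled, so the split of reads among these copies is uncertain.

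The DNA just before both genes is also nearly the same, as the windows upstream of both the RefSeq and the GENCODE start sites show (RefSeq, GRCm38.p6). Capitals mark a match to TGANTCA, a loose form of the AP-1 motif in which N is any base, read on both strands. The middle base of both matches is A. The Bcl2a1b window is chr9:89199023-89199208 on the plus strand and the Bcl2a1d window chr9:88731915-88732100 on the minus strand.
Bcl2a1b: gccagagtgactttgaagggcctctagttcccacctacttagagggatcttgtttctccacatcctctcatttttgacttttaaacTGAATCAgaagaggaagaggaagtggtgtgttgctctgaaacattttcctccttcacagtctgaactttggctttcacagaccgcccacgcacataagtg
Bcl2a1d: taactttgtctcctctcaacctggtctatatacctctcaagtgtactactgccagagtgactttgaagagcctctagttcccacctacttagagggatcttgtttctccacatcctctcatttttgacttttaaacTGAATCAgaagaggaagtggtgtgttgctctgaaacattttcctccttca
Over the 136 bases that align between the windows, 1 base differed besides a short gap. This motif occurred in the 250 bases before 6.75% of 32851 RefSeq start sites. The kappaB motif and the STAT motif TTCNNNGAA, searched on both strands in those windows, occurred before 7.25% and 7.02% of start sites. Among the members, the AP-1 motif matched before Bcl2a1b and Bcl2a1d, the kappaB motif before 1 of the 3 start sites of Bcl2l1, and the STAT motif before none.

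Levels are FPKM (fragments per kilobase of exon, scaled to the library's reads). Being per length, they can be set against each other between genes whose reads match no other gene. How reads shared by the Bcl2a1 copies were handled is not given, so the place of these copies in the order is uncertain. Mcl1 was by far the highest member, with 364 to 416 FPKM over the 6 libraries, against 75.6 to 91.4 FPKM for Bax, the next. Mcl1 made up 65.2%, 65.2% and 63.3% of the summed FPKM of the 10 members in the tamoxifen-labelled libraries 1, 2 and 3, and 67.8%, 66.7% and 68.0% in oil 1, 2 and 3. Below Bax came Bak1 (32.4 to 43.8 FPKM), Bcl2l11 (23.7 to 31.0 FPKM), Bcl2l1 (14.2 to 23.6 FPKM) and Bad (11.2 to 14.1 FPKM). Each of these members lay above the next in all 6 libraries, and their ranges over libraries did not overlap. Bad and Bcl2a1d did not differ beyond their spread, Bad being higher in 4 of 6 libraries, and neither did Bcl2a1b and Bid. Bcl2a1d was above Bcl2a1b in 6 of 6 libraries, but their ranges overlapped. Bcl2, the gene that names the family, was lowest, at 0.659 to 1.22 FPKM. The reads behind these values, recovered from the FPKM, ran from 25721 to 36362 per library for Mcl1 and from 45 to 212 for Bcl2a1b.

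**Figure D1:**
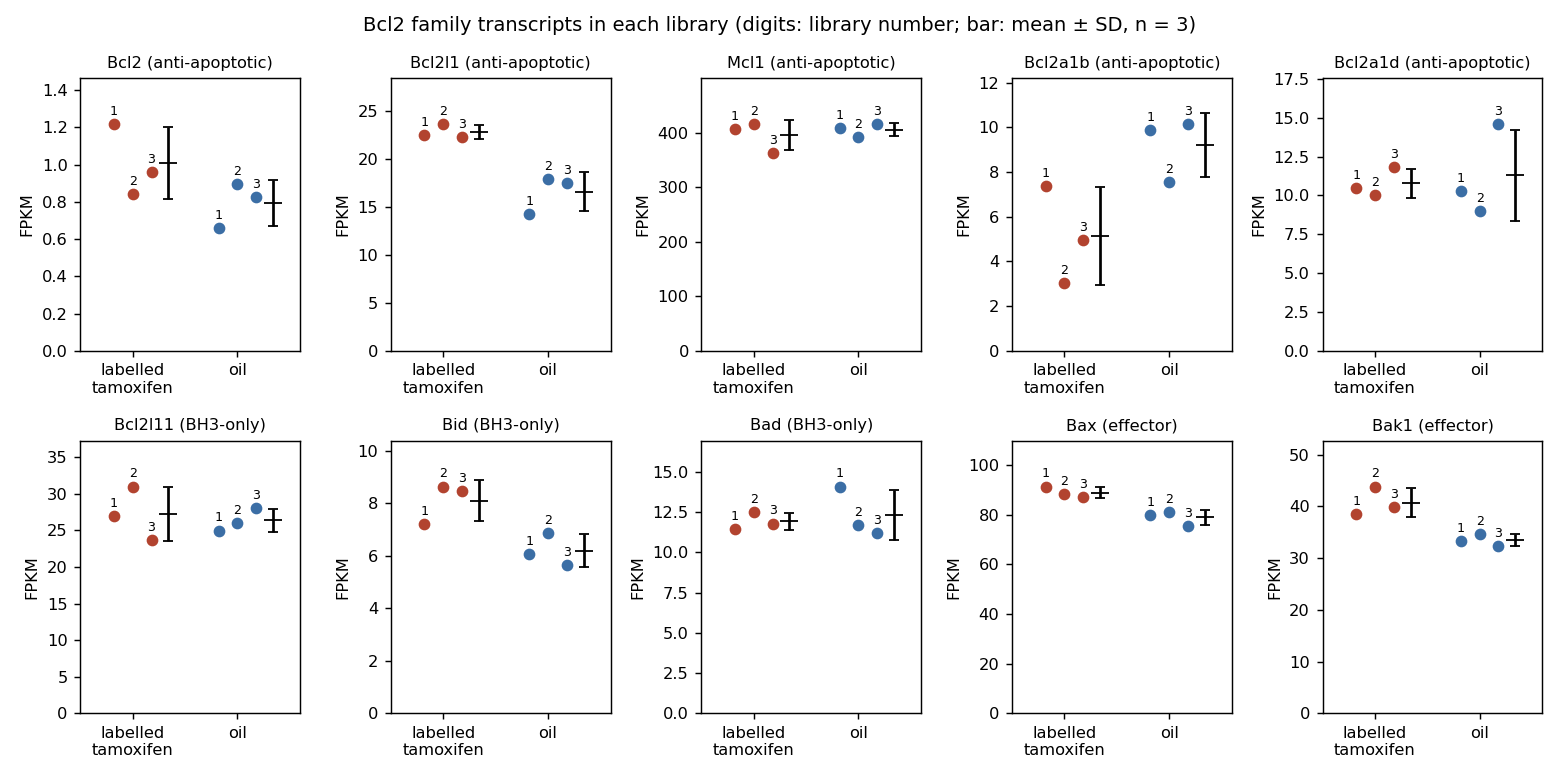
FPKM of each member (y axis, starting at 0) in the 3 tamoxifen-labelled libraries (left, red) and the 3 oil libraries (right, blue), with the library number beside each point and the mean ± SD at the side. Bcl2l1, Bid, Bax and Bak1 lie above all oil libraries in every library labelled tamoxifen, Bcl2a1b lies below them, and the other 5 members overlap.

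The samples limit what follows. Manf was at 18.1, 42.5 and 37.98 FPKM in the tamoxifen-labelled libraries 1, 2 and 3, against 29.5, 33.0 and 31.4 FPKM in oil 1, 2 and 3, so the level of the whole gene did not separate the groups (exact two-sided permutation p = 1, where the smallest possible is 0.1). The FPKM also counts exons outside the deleted part, which the sources used here do not specify. Depth lay between 18120333 and 25544666 reads per library. The sort markers were present, with Adgre1 (F4/80) at 304 to 369 FPKM in the tamoxifen-labelled libraries and 329 to 384 FPKM in oil. The 8 macrophage and sort markers used summed to 8540 to 9670 FPKM in the tamoxifen-labelled libraries and 10766 to 12464.5 FPKM in oil, all 8 at a mean of 1 FPKM or more. Most of that sum was Lyz2, at 6774 to 7399 FPKM in the tamoxifen-labelled libraries and 8548 to 10193 FPKM in oil. Of these 8, 1 stood above oil and 5 below at an unadjusted p under 0.05 in the limma-trend fit described below. The shares of all genes were 13.2% and 11.7%. All 9 markers of Ly6C-high monocytes lay above all oil libraries, with a summed level of 842 to 2985 FPKM in the tamoxifen-labelled libraries and 323 to 432 FPKM in oil. The 12 neutrophil markers summed to 49.8 to 324 FPKM in the tamoxifen-labelled libraries and 43.3 to 47.8 FPKM in oil, with 6 of 12 at a mean of 1 FPKM or more. Of those 6, 1 stood above oil and 0 below at an unadjusted limma-trend p under 0.05. S100a8 was at 4.12, 154 and 40.4 FPKM in the tamoxifen-labelled libraries 1, 2 and 3, against 2.64, 3.04 and 1.52 FPKM in oil 1, 2 and 3. S100a9 was at 0.696, 120 and 25.5 FPKM, against 0.826, 2.07 and 0.525 FPKM in oil. S100a8 and S100a9 made up most of the neutrophil marker sum in tamoxifen 2. Csf3r, of the same list, was below oil in tamoxifen 2 and 3. It was at 30.3, 15.2 and 14.6 FPKM in the tamoxifen-labelled libraries, against 27.3, 28.7 and 28.2 FPKM in oil. Ly6g, which defines mature neutrophils and averaged less than 1 FPKM, was at 0 except for 0.176 FPKM in tamoxifen 2. The 6 dendritic cell markers summed to 3.47 to 3.67 FPKM in the tamoxifen-labelled libraries and 6.51 to 11.5 FPKM in oil, with 2 of 6 at a mean of 1 FPKM or more and none at 0 throughout. The 12 T, NK and B cell markers summed to 9.50 to 24.3 FPKM in the tamoxifen-labelled libraries and 29.9 to 36.2 FPKM in oil, with Ncr1 at 0 throughout and 3 of 12 at a mean of 1 FPKM or more. Ighm was the largest part of that sum, at 3.98 to 18.8 FPKM in the tamoxifen-labelled libraries and 24.4 to 30.1 FPKM in oil. Of those 3, Cd79a stood above oil, and Ighm and Cd79b below, at an unadjusted limma-trend p under 0.05. The 12 stromal, endothelial and muscle markers summed to 20.3 to 39.8 FPKM in the tamoxifen-labelled libraries and 31.0 to 35.7 FPKM in oil, with 8 of 12 at a mean of 1 FPKM or more. The part of these cell types in the results on the members was not tested, and in bulk RNA fewer cells of a type and less RNA per cell cannot be told apart.

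The comparison of the tamoxifen-labelled libraries with oil asks which members differ when Manf is targeted for deletion. No member passed limma-trend, a linear model on log2(FPKM + 1) with p-values adjusted over all 10920 genes by the Benjamini-Hochberg method. Of all genes, 0% were called higher and 0% lower, so this count could not set the members apart from the background. At an unadjusted p under 0.05 stood 4 members above oil and 1 below, against 13.2% and 11.7% of all genes, and limma-voom on recovered reads, with 8 members measured, gave 3 and 1 and also called none. The groups were apart, with tamoxifen-labelled libraries higher, for 4 of the 10 members, against 16.2% of all genes, and lower for 1, against 13.8%. The 9 members tested had a median log2 fold change of 0.04, beside 0.02 over all genes.

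Among the guards, Bcl2l1, whose main product Bcl-xL shields mitochondria, had the smallest p of all members. It was at 22.5, 23.6 and 22.3 FPKM in the tamoxifen-labelled libraries 1, 2 and 3, against 14.2, 17.9 and 17.5 FPKM in oil 1, 2 and 3. No oil library reached the lowest of them. On the log2(FPKM + 1) scale, as for all tests here, Bcl2l1 differed by 0.45 (SE 0.10, 95% interval 0.21 to 0.68, n = 3 per group, limma-trend adjusted p = 0.147). The gene spans 152780668 to 152831728 on the minus strand of chromosome 2 (GRCm38, as all positions here).

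Bcl2a1b was the member with the largest difference and the only one with its groups apart in the downward direction. It was at 7.39, 3.04 and 4.95 FPKM in the tamoxifen-labelled libraries 1, 2 and 3, against 9.90, 7.55 and 10.2 FPKM in oil 1, 2 and 3. The gap between the groups was narrow, since tamoxifen 1 reached almost the level of oil 2. Its log2 fold change was -0.79 (SE 0.26, 95% interval -1.40 to -0.17, limma-trend adjusted p = 0.157). It was -0.52 without tamoxifen 2, the library with the lowest level, and -1.05 without tamoxifen 1. It rests on 133, 45 and 95 reads in the tamoxifen-labelled libraries and 150, 120 and 212 in oil. Of its exon bases (chromosome 9, 89199209 to 89207827, plus strand), 49.1% also belong to the annotated gene Gm29094 on the same strand, which was listed at no more than 0.0831 FPKM.

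Its copy Bcl2a1d (chromosome 9, 88723285 to 88731914, minus strand) was at 10.5, 10.04 and 11.8 FPKM in the tamoxifen-labelled libraries 1, 2 and 3, against 10.3, 8.99 and 14.6 FPKM in oil 1, 2 and 3. These groups overlapped, and oil held both the lowest and the highest value. Its fold change on the log2 scale was -0.04 (95% interval -0.43 to 0.36, limma-trend adjusted p = 0.893). Bcl2a1a, a further copy, was at 1.16, 1.55 and 1.56 FPKM in the tamoxifen-labelled libraries and 1.25, 0.376 and 1.15 FPKM in oil, and Bcl2a1c was listed at 0 in every library. The copies share most of their sequence, so their sum, a measure added after the values were seen, is given too. It was 19.0, 14.6 and 18.4 FPKM in the tamoxifen-labelled libraries, against 21.5, 16.9 and 25.9 FPKM in oil, and the groups overlapped. Bcl2a1b took 38.9%, 20.8% and 27.0% of that sum in the tamoxifen-labelled libraries 1, 2 and 3, against 46.1%, 44.6% and 39.2% in oil 1, 2 and 3. Tamoxifen 1 and oil 3 were almost level in this share.

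**Figure D2:**
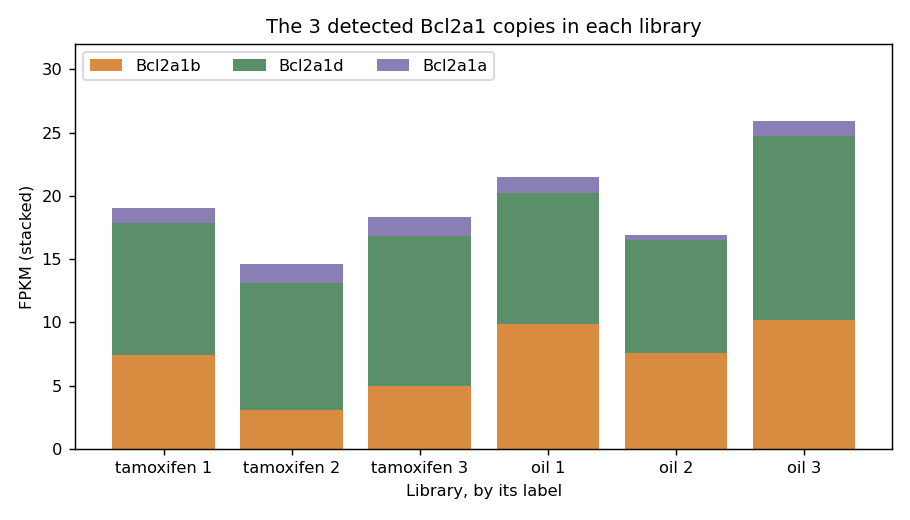
Stacked FPKM (y axis, starting at 0) of Bcl2a1b, Bcl2a1d and Bcl2a1a in each library, those labelled tamoxifen left of oil. The Bcl2a1b part is 3.04 to 7.39 FPKM in the tamoxifen-labelled libraries and 7.55 to 10.2 FPKM in oil, while the height of the whole bar overlaps between the groups.

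The most abundant guard, Mcl1 (chromosome 3, 95658788 to 95663176, plus strand), was at 407, 415 and 364 FPKM in the tamoxifen-labelled libraries 1, 2 and 3, against 408, 393 and 416 FPKM in oil 1, 2 and 3. The groups overlapped, with tamoxifen 3 the lowest library. The log2 fold change was -0.04 (SE 0.09, limma-trend adjusted p = 0.788), with a 95% interval of -0.25 to 0.17. Bcl2 (chromosome 1, 106538178 to 106714274, minus strand) averaged 0.901 FPKM, below the minimum of 1 FPKM for the test. It was at 1.22, 0.844 and 0.963 FPKM in the tamoxifen-labelled libraries, against 0.659, 0.898 and 0.825 FPKM in oil. Its groups overlapped, and without the filter its log2 fold change was 0.16 (95% interval -0.13 to 0.45, limma-trend adjusted p = 0.593).

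Of the BH3-only genes, Bid stood apart between the groups. Bid encodes a protein that caspase-8 cleaves and so links death receptors to mitochondria. It was at 7.21, 8.64 and 8.46 FPKM in the tamoxifen-labelled libraries 1, 2 and 3, against 6.09, 6.89 and 5.63 FPKM in oil 1, 2 and 3. The log2 fold change was 0.34 (SE 0.10, 95% interval 0.10 to 0.58, limma-trend adjusted p = 0.153). Bid (chromosome 6, 120891930 to 120916853, minus strand) shares 17.7% of its exon bases with Bcl2l13 on the other strand, and without strand information reads there cannot be assigned. Bcl2l13 itself was at 5.50, 6.28 and 5.86 FPKM in the tamoxifen-labelled libraries and 5.26, 5.30 and 5.15 FPKM in oil.

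Bcl2l11, the gene of Bim and a target of FoxO factors, was at 26.9, 31.0 and 23.7 FPKM in the tamoxifen-labelled libraries 1, 2 and 3, against 25.0, 26.1 and 28.1 FPKM in oil 1, 2 and 3. Its tamoxifen-labelled libraries spread to both sides of oil. The log2 fold change was 0.04 (95% interval -0.22 to 0.29, limma-trend adjusted p = 0.848), and the gene spans 128126038 to 128162547 on the plus strand of chromosome 2. Bad, which survival signals inactivate by phosphorylation, was at 11.5, 12.5 and 11.8 FPKM in the tamoxifen-labelled libraries, against 14.1, 11.7 and 11.2 FPKM in oil. Only oil 1 stood away from the other libraries. The log2 fold change was -0.04 (95% interval -0.27 to 0.19, limma-trend adjusted p = 0.809). Bad (chromosome 19, 6941861 to 6951899, plus strand) shares 20.5% of its exon bases with Gpr137 on the other strand.

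Both effectors were higher in every library labelled tamoxifen, by a small margin. Bax was at 91.4, 88.3 and 87.2 FPKM in the tamoxifen-labelled libraries 1, 2 and 3, against 80.1, 81.3 and 75.6 FPKM in oil 1, 2 and 3. Its means were 89.0 ± 2.19 FPKM in the tamoxifen-labelled libraries and 79.0 ± 3.03 FPKM in oil (SD, n = 3 each), which is 0.17 apart on the log2 scale (SE 0.07, limma-trend adjusted p = 0.191), and 0.10 after quantile normalization. Bak1 was at 38.6, 43.8 and 39.8 FPKM in the tamoxifen-labelled libraries, against 33.3, 34.7 and 32.4 FPKM in oil. Its log2 fold change was 0.27 (SE 0.08, 95% interval 0.09 to 0.45, limma-trend adjusted p = 0.152). Together the effectors summed to 130, 132 and 127 FPKM in the tamoxifen-labelled libraries and 113, 116 and 108 FPKM in oil. The summed BH3-only genes overlapped, at 43.9 to 52.2 FPKM in the tamoxifen-labelled libraries and 44.6 to 45.2 FPKM in oil, and so did the summed guards, at 404 to 453 FPKM in the tamoxifen-labelled libraries and 428 to 460 FPKM in oil. Bax lies on chromosome 7 (45461697 to 45466898) and Bak1 on chromosome 17 (27019810 to 27029009), both on the minus strand. Of Bak1's exon bases, 25.5% also belong to Ggnbp1 on the other strand, listed at no more than 0.124 FPKM.

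**Figure D3:**
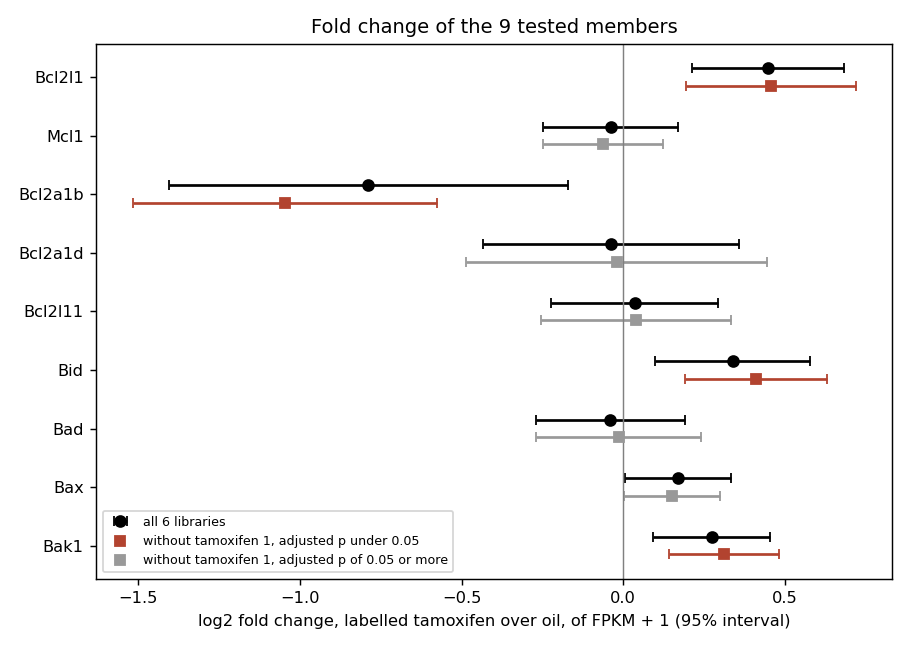
Log2 fold change (x axis, tamoxifen-labelled libraries over oil, of FPKM + 1) with 95% limma intervals for the 9 tested members, over all 6 libraries (circles) and without tamoxifen 1 (squares, red where the adjusted p is under 0.05). Bcl2l1, Bid and Bak1 on the right and Bcl2a1b on the left pass without tamoxifen 1, and Mcl1, Bcl2a1d, Bcl2l11 and Bad stay near 0 in both fits.

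The library labelled tamoxifen 1, the one with the lowest Manf, decided whether any member was called. Without it, Bcl2l1 rose (log2 fold change 0.46, limma-trend adjusted p = 0.0242), as did Bid (0.41, adjusted p = 0.0191) and Bak1 (0.31, adjusted p = 0.02). Bcl2a1b fell (-1.05, adjusted p = 0.0114), and Bax did not pass (0.15, adjusted p = 0.106). Manf itself was above oil without tamoxifen 1 (log2 fold change 0.35, limma-trend adjusted p = 0.0214), the direction opposite to a loss of Manf. In that fit 17.4% of all genes were called higher and 14.5% lower, beside 3 and 1 of the 9 members. For Bcl2l1 the fold change hardly moved, at 0.45 (SE 0.099) over all 6 libraries and 0.46 (SE 0.108) without tamoxifen 1. Its unadjusted limma-trend p was 0.00294 and 0.00536 in that order, so its call came with the adjustment over all genes. In the same order the limma-trend p was 0.0124 and 0.00372 for Bid, 0.00921 and 0.004 for Bak1, and 0.0195 and 0.00154 for Bcl2a1b. Without tamoxifen 1 the values of Bid and Bak1 also exceeded the 0.00294 that did not pass over all 6 libraries. With library quality weights the same 4 members were called, beside 24.8% and 18.7% of all genes. The weights were 0.199, 0.525 and 3.77 for tamoxifen 1, 2 and 3, against 1.05, 2.17 and 1.11 for oil 1, 2 and 3, so those calls rest mainly on tamoxifen 3 among the tamoxifen-labelled libraries. Leaving out any other single library called no member.

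**Figure D4:**
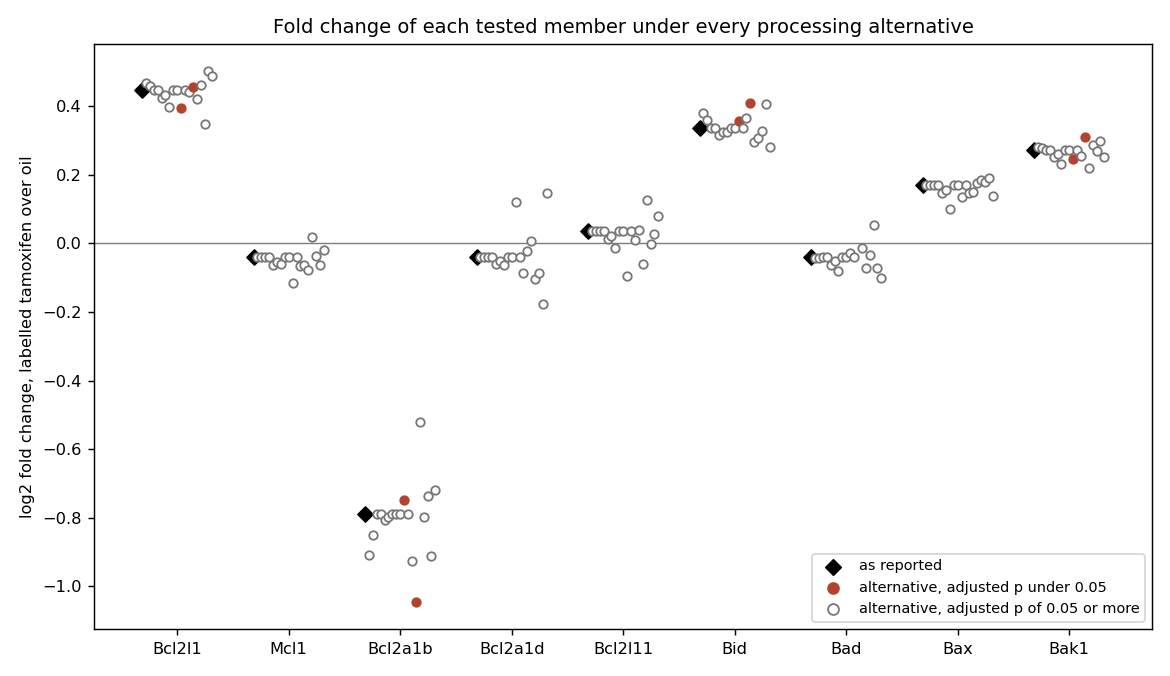
Log2 fold change (y axis, tamoxifen-labelled libraries over oil) of the 9 tested members as reported (diamond) and under each processing alternative (circles, red where the adjusted p is under 0.05), left to right in the order tried with libraries left out last. Bcl2l1, Bid, Bax and Bak1 stay above 0 and Bcl2a1b stays below, while Mcl1, Bcl2a1d, Bcl2l11 and Bad lie on both sides of 0.

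Ratios between members within a library cancel its scaling. The log2 ratio of Bax to Bcl2l1, effector to guard, was 2.02, 1.90 and 1.97 in the tamoxifen-labelled libraries 1, 2 and 3, against 2.50, 2.18 and 2.11 in oil 1, 2 and 3. These groups did not overlap, Bcl2l1 being higher relative to Bax in the tamoxifen-labelled libraries. The log2 ratio of Bcl2l11 to Mcl1 averaged -3.87 ± 0.109 in the tamoxifen-labelled libraries and -3.94 ± 0.074 in oil (SD, n = 3 each), with overlap. That of Bax to Bcl2 averaged 6.48 ± 0.241 in the tamoxifen-labelled libraries and 6.65 ± 0.240 in oil, also with overlap. Its difference changed sign with a pseudocount of 1 FPKM on both genes, at 0.009 against -0.17 without one. No test was made on the ratios.

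Among the remaining genes of the family, Bmf had the smallest p. The counts of this list and of those that follow stand against 13.2% of all genes above oil and 11.7% below at an unadjusted p under 0.05, a median log2 fold change of 0.02 over all genes, and, without tamoxifen 1, 17.4% called higher and 14.5% lower. Of 16 such genes, 9 reached the minimum level, none passed limma-trend over all genes, and 0 stood above oil and 2 below at an unadjusted p under 0.05. Bmf, a BH3-only gene linked to the cytoskeleton, was at 1.69, 0.735 and 0.738 FPKM in the tamoxifen-labelled libraries 1, 2 and 3, against 3.11, 2.59 and 1.94 FPKM in oil 1, 2 and 3. Its groups did not overlap (log2 fold change -0.81, SE 0.21, limma-trend adjusted p = 0.148). At these low levels the value depends on the pseudocount, being -1.27 with a pseudocount of 0.1 FPKM and -1.35 in limma-voom on recovered reads. Bnip3l, a mitophagy receptor, was at 31.9, 18.5 and 19.8 FPKM in the tamoxifen-labelled libraries and 36.3, 29.9 and 32.1 FPKM in oil, with tamoxifen 1 inside the oil range. Without tamoxifen 1, Bmf fell (limma-trend adjusted p = 0.00683), as did Bnip3l (adjusted p = 0.00451). The other BH3-only genes Bbc3 (Puma) and Pmaip1 (Noxa), both p53 targets, named after their values were seen, were at 8.73 to 9.61 FPKM and 17.8 to 20.3 FPKM in the tamoxifen-labelled libraries and at 6.37 to 9.53 FPKM and 18.6 to 20.4 FPKM in oil.

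Downstream of the members, cytochrome c was higher in each tamoxifen-labelled library than in any oil library. Of 12 apoptosome and caspase genes 11 were tested and none passed limma-trend, with 2 above oil and 1 below at an unadjusted p under 0.05 and a median log2 fold change of 0.04. Cycs, the cytochrome c that Bax and Bak1 pores release, was at 24.1, 34.97 and 33.97 FPKM in the tamoxifen-labelled libraries 1, 2 and 3, against 17.2, 20.8 and 19.5 FPKM in oil 1, 2 and 3 (log2 fold change 0.65, SE 0.15, limma-trend adjusted p = 0.147). The groups did not overlap, and tamoxifen 1 was nearest to oil. Aifm1, a mitochondrial flavoprotein, averaged 9.33 ± 0.735 FPKM in the tamoxifen-labelled libraries and 7.51 ± 0.350 FPKM in oil. Casp2, a caspase, averaged 2.44 ± 0.489 FPKM in the tamoxifen-labelled libraries and 3.39 ± 0.233 FPKM in oil (SD, n = 3 each). Without tamoxifen 1, Cycs rose (limma-trend adjusted p = 0.00315), as did Aifm1 (adjusted p = 0.0147), and Casp2 fell (adjusted p = 0.0225).

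The list named caspase inhibitors, which also holds Naip genes, had the lowest median of the lists, -0.19, with 9 of 10 tested. None passed limma-trend, and 0 stood above oil and 3 below at an unadjusted p under 0.05. The log2 fold change was above 0 for 3 of them (Xiap 0.07, Birc6 0.31 and Cflar 0.30) and below 0 for 6. Birc2 (cIAP1), a ubiquitin ligase of tumour necrosis factor signalling, averaged 3.72 ± 0.167 FPKM in the tamoxifen-labelled libraries and 5.24 ± 0.511 FPKM in oil (limma-trend adjusted p = 0.147), with the groups apart. Birc5 (survivin), also a gene of dividing cells, averaged 9.17 ± 2.66 FPKM in the tamoxifen-labelled libraries and 14.0 ± 1.57 FPKM in oil. Naip5, an inflammasome sensor with close relatives, averaged 10.5 ± 2.95 FPKM in the tamoxifen-labelled libraries and 14.3 ± 0.696 FPKM in oil. Without tamoxifen 1, Birc2 fell (limma-trend adjusted p = 0.0224), as did Naip5 (adjusted p = 0.00307) and Naip6 (adjusted p = 0.00498), and Birc5 did not pass (adjusted p = 0.0976). In that fit Cflar, the inhibitor of caspase-8, rose (adjusted p = 0.0376). These 3 lower and 1 higher of the 9 tested stand beside 14.5% and 17.4% of all genes. Naip6, Cflar, Xiap and Birc6 were named after their values were seen.

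Of 10 death receptor and necroptosis genes 8 were tested and none passed limma-trend, with a median log2 fold change of 0.14 and 2 above oil and 0 below at an unadjusted p under 0.05. Mlkl, which executes necroptosis, was at 12.2, 11.96 and 11.2 FPKM in the tamoxifen-labelled libraries 1, 2 and 3, against 8.24, 9.21 and 9.37 FPKM in oil 1, 2 and 3 (log2 fold change 0.36, SE 0.08, limma-trend adjusted p = 0.147). The groups did not overlap. Fas, a death receptor, averaged 5.98 ± 1.19 FPKM in the tamoxifen-labelled libraries and 4.37 ± 0.0815 FPKM in oil. Ripk3, the kinase that activates Mlkl, averaged 31.3 ± 8.18 FPKM in the tamoxifen-labelled libraries and 22.3 ± 2.37 FPKM in oil (SD, n = 3 each). Without tamoxifen 1, these 3 genes rose (limma-trend adjusted p = 0.0227, 0.00714 and 0.0131 in that order).

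Genes of outer membrane channels and of proteins that bind members had a median of 0.18, and 3 of the 9 tested stood above oil and 0 below at an unadjusted p under 0.05 (13.2% and 11.7% of all genes), while none passed limma-trend. Tspo, a cholesterol-binding protein of that membrane, was at 221, 282 and 242 FPKM in the tamoxifen-labelled libraries 1, 2 and 3, against 195, 195 and 195 FPKM in oil 1, 2 and 3. The oil libraries were nearly level, and each tamoxifen-labelled library exceeded them (log2 fold change 0.34, SE 0.10, limma-trend adjusted p = 0.154), and the fold change was 0.22 after quantile normalization. Hk1, a hexokinase docked on mitochondria, averaged 12.9 ± 1.99 FPKM in the tamoxifen-labelled libraries and 9.94 ± 0.650 FPKM in oil. Vdac2, the channel that holds Bak1, averaged 54.5 ± 1.70 FPKM in the tamoxifen-labelled libraries and 48.0 ± 0.818 FPKM in oil (SD, n = 3 each). Without tamoxifen 1, 5 of the 9 genes rose, beside 17.4% of all genes, among them Tspo (limma-trend adjusted p = 0.0117), Hk1 (adjusted p = 0.0159) and Vdac2 (adjusted p = 0.0365).

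Of 15 genes that regulate the members' transcription or stability, all were tested and none passed limma-trend, with 1 above oil and 3 below at an unadjusted p under 0.05. Csf1r, the receptor through which macrophages receive their main survival signal, was at 320, 250 and 289 FPKM in the tamoxifen-labelled libraries 1, 2 and 3, against 446, 386 and 399 FPKM in oil 1, 2 and 3 (log2 fold change -0.52, SE 0.12, limma-trend adjusted p = 0.147). Its groups did not overlap. Foxo1 averaged 1.48 ± 0.157 FPKM in the tamoxifen-labelled libraries and 1.97 ± 0.0799 FPKM in oil. Foxo3 averaged 9.37 ± 1.55 FPKM in the tamoxifen-labelled libraries and 11.9 ± 1.07 FPKM in oil (SD, n = 3 each). Both encode FoxO factors, which can induce Bcl2l11. The median log2 fold change of the list was 0.11. Without tamoxifen 1, Csf1r fell (limma-trend adjusted p = 0.00717), as did Foxo3 (adjusted p = 0.0124).

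**Figure D5:**
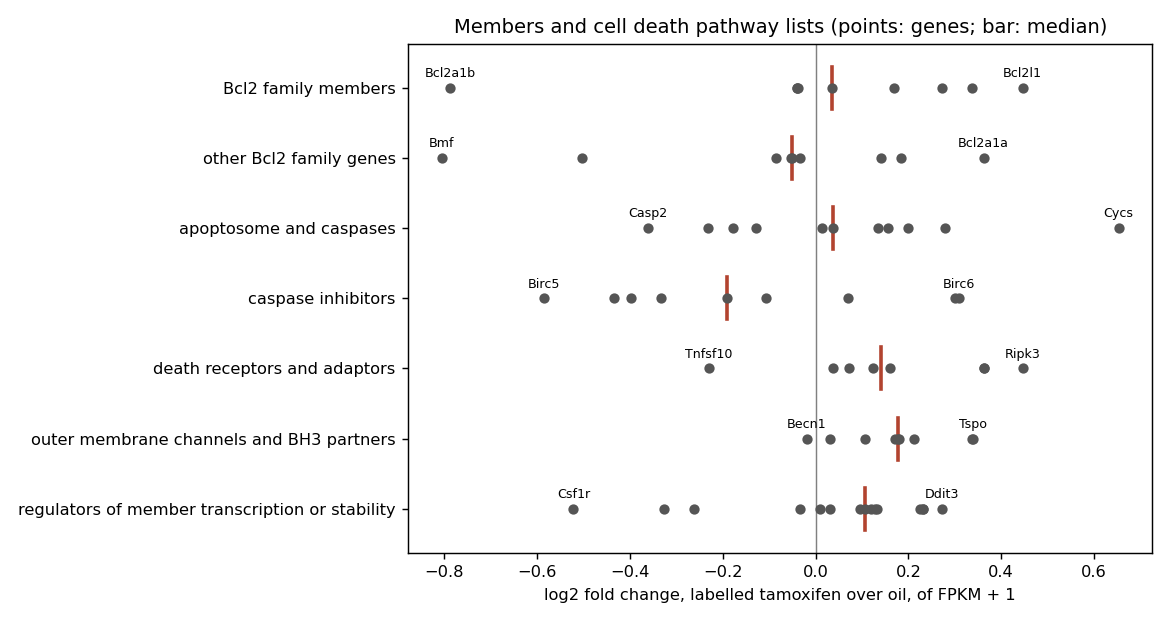
Log2 fold change (x axis, tamoxifen-labelled libraries over oil, of FPKM + 1) of each tested gene of the Bcl2 family members and of 6 pathway lists, with the median as a bar and the lowest and highest gene named. Medians run from -0.19 for caspase inhibitors to 0.18 for outer membrane channels and BH3 partners, and no gene shown passed over all genes.

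For the most abundant member of each role, the 3 tested genes outside the family with the most similar pattern were looked up by Pearson's r of log2(FPKM + 1) over the 6 libraries, which share their scaling and depth within a library. For Mcl1 they were Gbp2 (r = 0.973), Mon1a (0.968) and Tmbim6 (0.967). For Bcl2l11 they were Gm45053 (0.989), Gm26982 (0.982) and Depdc7 (0.980), and for Bax they were Dbt (0.992), Dnajc15 (0.991) and Uqcrq (0.989). Picked as the highest of all tested genes over only 6 libraries, these r values are high by selection and serve as description only. All 3 genes named for Mcl1 were, like Mcl1, lowest in tamoxifen 3. Uqcrq, a subunit of respiratory complex III, was at 37.8 to 38.8 FPKM in the tamoxifen-labelled libraries and 35.8 to 36.5 FPKM in oil.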

How the data were processed

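FPKM per gene and library were deposited by the authors in 1 table, and the unit comes from the table's name and values. Per the submitters' processing notes, reads were placed on GRCm38.p6. No source used here names the aligner, counting program, strand setting or annotation. Of 54183 lines, 382 without a gene name and 27 with a date in its place (0.253% to 0.289% of summed FPKM) were left out. FPKM times GENCODE M21 exon length came out as whole reads within 0.02 for 95.0% to 95.3% of values up to 1000 reads, which gave each library's depth. Depth limits the precision of low members, above all Bcl2a1b. Bad did not come out whole.

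The comparison used limma-trend on log2(FPKM + 1) for the 10920 genes that averaged 1 FPKM or more, two-sided, Benjamini-Hochberg adjusted over all of them, threshold 0.05, with no covariates. The fit was tested on simulated data. All 10 members are named. From each pathway list the 3 genes with the smallest p are named, and others are marked. Names on more than 1 line (124, such as Itgam) stayed in the fit and out of the lists. The members and lists were chosen with earlier results of these data known. Motifs were searched with Python 3.11.15 and alignments made with Biopython 1.88. R 4.3.3 and limma 3.58.1 were used.

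Alternatives were pseudocounts of 0.1 and 0.5, no filter, a filter at 5 FPKM, 3 other scalings, no trend, a robust prior, library quality weights, the replicate number as a block, limma-voom on recovered reads, and each library left out in turn.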

Additional observations from a re-analysis of the deposited data

How the results depend on the processing

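No member was called in the reported fit, and 4 were called with library quality weights; leaving out 1 library gave 0 to 4. Genes called over the whole table numbered 0, against 1 without a filter, 5 with the filter at 5 FPKM, 4741 with library quality weights and 33 with the replicate block; leaving out 1 library gave 0 to 3484. With library quality weights, 2 other Bcl2 family genes, 6 apoptosome and caspase genes, 4 caspase inhibitors, 4 death receptor genes, 6 channel and partner genes and 6 regulators were called. Leaving out 1 library gave 0 to 2, 0 to 3, 0 to 4, 0 to 3, 0 to 5 and 0 to 2 in these lists, the upper ends all without tamoxifen 1. No label says that the library numbers mark pairs, so they were not taken as pairs. Same-numbered libraries had deviations that correlated at 0.261, 0.088 and 0.004, and differently numbered ones at -0.256 to 0.174. The replicate block called no member, and with it Bcl2a1b had an SE of 0.15 (limma-trend adjusted p = 0.0747).

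Bcl2l1, Bid, Bax and Bak1 kept a log2 fold change above 0 and Bcl2a1b one below 0 in all 18 alternatives. Members near 0 changed sign without passing. Leaving out 1 library gave -0.076 to 0.020 for Mcl1 (above 0 without tamoxifen 3), -0.18 to 0.15 for Bcl2a1d (above 0 without tamoxifen 2 or oil 3), -0.060 to 0.13 for Bcl2l11 (below 0 without tamoxifen 2 or oil 1) and -0.10 to 0.053 for Bad (above 0 without oil 1). With library quality weights Bcl2a1d was at 0.12 and Bcl2l11 at -0.095, and with quantile normalization Bcl2l11 was at -0.015. Manf was at -0.02 as reported, 0.23 with library quality weights and -0.24 to 0.35 with 1 library left out, above 0 without tamoxifen 1 (adjusted p = 0.0214) or oil 2. No scaling moved the median of all genes by over 0.1.

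With a pseudocount of 1 FPKM the log2 ratio difference of Bax to Bcl2 changed sign, from -0.17 to 0.009, while those of Bcl2l11 to Mcl1 and of Bax to Bcl2l1 kept theirs. The cause of the change without tamoxifen 1 was not tested.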
